A study of Homo sapiens with 12 samples.

Results

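Senescent MRC5 fibroblasts kept in UK5099 were compared with proliferating MRC5 fibroblasts, using 3 libraries of each, 6 of the 12 libraries of the series. MRC5 is a strain of human embryonic lung fibroblasts. The proliferating cells are called Prol. Cells made senescent by 20 Gy of X-rays are called Sen(IR), and irradiated cells that were also given UK5099 are called Sen(IR)+UK5099. The members were taken by their column labels, and the comparison covered every gene that passed the filter on low counts, 16251 of 57500. Per the methods of the study, UK5099 was used at 100 μM, was added 1 day after irradiation and was kept in the medium for 12 days, while senescent cells were collected between 10 and 12 days after irradiation. No proliferating cells with UK5099 were among the 12 libraries, so what the inhibitor does without irradiation cannot be told. The comparison joins irradiation and the inhibitor, and only the Sen(IR) libraries set them apart, in irradiated cells. The Sen(IR) levels, or only the calls made in Sen(IR), are therefore given beside it for most differences said to have remained or to be absent. The sources used here do not give the vehicle of the Prol and Sen(IR) cells or the days that the Prol cells spent in culture. The paper describes the RNA-seq as 3 independent conditions in its legend on UK5099 and as 3 independent experiments in another legend. The labels do not say whether the 3 libraries of a group came from separate cultures. The p-values therefore measure a spread between libraries of the same group, pooled over the 4 groups of the series, part of which may be technical. In RNA from whole cultures, fewer cells with a transcript and less of it in each cell cannot be told apart.

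Senescence is a lasting exit from the cell cycle that is held by CDK inhibitors such as p21 and p16. Senescent cells also release cytokines, chemokines, growth factors and proteases, known together as the senescence-associated secretory phenotype (SASP), much of which is driven by NF-kB. UK5099 blocks the mitochondrial pyruvate carrier, a complex of MPC1 and MPC2 that takes pyruvate from the cytosol into mitochondria. There pyruvate dehydrogenase turns it into acetyl-CoA, which enters the TCA cycle as citrate. Citrate can leave again through SLC25A1 and is split by ACLY into cytosolic acetyl-CoA, the donor for lipid synthesis and for histone acetylation. The question was which differences from proliferating cells remain when senescent cells are kept in this inhibitor, which are absent, and which lie beyond the proliferating level.

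Library totals ran from 24289488 to 28245693 counts in Prol, from 20597736 to 22693608 in Sen(IR) and from 22986814 to 25848472 in Sen(IR)+UK5099. Levels are CPM, the counts scaled to the TMM-adjusted size of each library, and a fold change or its log2 is the edgeR estimate. To be called, a gene needed an adjusted p (Benjamini-Hochberg) under 0.05 and a log2 fold change beyond 0.5 in either direction. In a principal component analysis PC1 (76.1% of the variance) placed Prol between -74.19 and -66.81, Sen(IR) between 24.05 and 24.66 and Sen(IR)+UK5099 between 46.59 and 48.14. PC2 (18% of the variance) placed Prol between 5.80 and 7.83, Sen(IR) between -33.82 and -32.71 and Sen(IR)+UK5099 between 25.56 and 28.16. The libraries grouped by their labels, with Prol replicate 2 the furthest from the rest of its group on PC1. Pairs of Prol libraries differed by a chi-square per gene of 8.11 to 13.6. In Sen(IR) it was 2.28 to 3.39 and in Sen(IR)+UK5099 4.61 to 5.19. The intervals rest on a spread pooled over the groups, so they can be too narrow for genes that vary in Prol. All 10 fibroblast markers searched were detected in every group, and their summed level lay between 21400 and 25400 CPM in Prol, between 20700 and 21300 CPM in Sen(IR) and between 10900 and 11400 CPM in Sen(IR)+UK5099. Markers of other cell types stayed low. Their sums in Sen(IR)+UK5099 were 1.28 to 1.41 CPM for 7 epithelial markers, of which SCGB1A1 was at 0, 0.775 to 1.08 CPM for 5 endothelial markers and 2.48 to 3.41 CPM for 6 leukocyte markers, most of it CD14 (2.57, 3.00 and 2.13 CPM), which was called higher than Prol in Sen(IR) as well.

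Against Prol, 4374 genes were called higher in Sen(IR)+UK5099, 26.9% of the 16251 genes tested, and 4258 were called lower, 26.2%. The levels of the 3 libraries did not overlap those of Prol in 12113 genes, 74.5% of those tested, and in 8463 of the 8632 called genes. The median log2 fold change of all tested genes was 0.01. The same rule called 4033 genes higher (24.8%) and 3644 lower (22.4%) in Sen(IR) than in Prol, and 1423 higher (8.76%) and 1963 lower (12.1%) in Sen(IR)+UK5099 than in Sen(IR). These comparisons share libraries, so the counts that combine them describe how genes were placed and are not independent tests.

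Most differences between senescent and proliferating cells remained under the inhibitor. Of the 4033 genes called higher in Sen(IR), 3093 (76.7%) were also called higher than Prol in Sen(IR)+UK5099. Of the 3644 genes called lower in Sen(IR), 3029 (83.1%) were also called lower. Among these remaining differences 213 of the higher and 54 of the lower genes moved toward Prol when compared with Sen(IR), whereas 535 and 596 moved further away from it. The median log2 fold change against Prol was 1.38 for the genes that stayed higher (1.24 in Sen(IR)) and -1.18 for those that stayed lower (-1.01 in Sen(IR)).

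A smaller group of differences was absent, which here means that the gene was called toward Prol against Sen(IR) and that the 95% interval of its log2 fold change against Prol lay within 0.5 of zero. A difference under this margin can remain. It held 151 genes that were higher in Sen(IR) and 84 that were lower. A further 130 genes were called higher than Prol in Sen(IR) and lower than Prol in Sen(IR)+UK5099, with a median log2 fold change of 1.11 in the former and -1.22 in the latter. The reverse placement was met by 7 genes, or by 3 to 12 when single libraries were left out. For 565 of the higher and 404 of the lower genes no call against Prol was made but the interval reached beyond the margin. These were placed neither as remaining nor as absent, although a difference can pass the adjusted p and miss the fold change. Of them 260 of the higher and 80 of the lower genes were called toward Prol against Sen(IR). The absent class therefore does not hold every gene that moved toward Prol and lost its call. The interval lay inside the margin for 245 and 204 uncalled genes, of which only the 151 and 84 were also called toward Prol against Sen(IR). Finally, 501 genes were higher and 468 were lower than both Prol and Sen(IR) without having been called in Sen(IR).

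**Figure D1:**
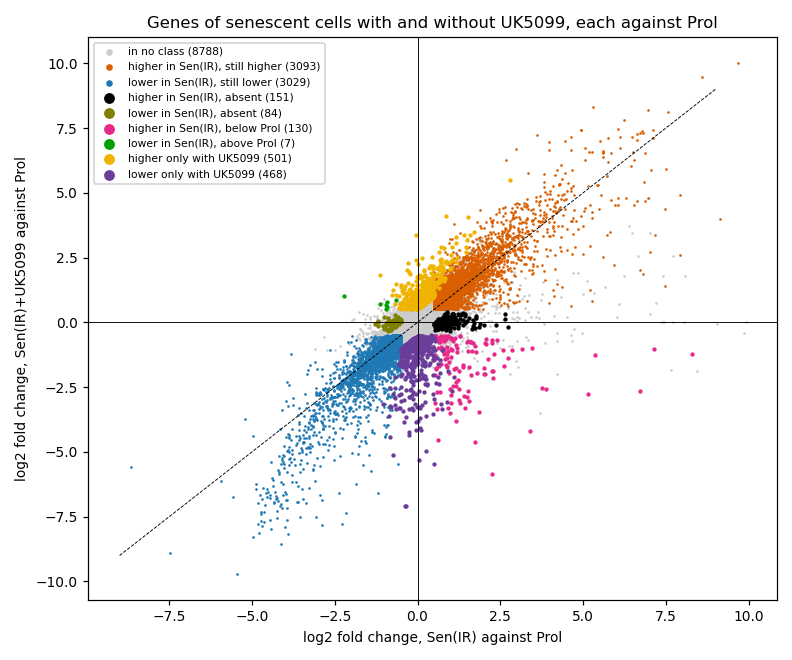
Each point is 1 of the 16251 genes tested, with its log2 fold change of Sen(IR) against Prol on the x axis and of Sen(IR)+UK5099 against Prol on the y axis, coloured by class with the number of genes in brackets. Points near the dashed line of equal change kept their difference, the black points on the horizontal line lost it and the pink points below it (130 genes) passed the Prol level. Fitted values of genes near the floor of counting depend on the fit.

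The largest falls among well-expressed genes were genes of dividing cells. KIF20A, a kinesin of cytokinesis, was at 194, 178 and 193 CPM in Prol and 0.497, 0.853 and 0.581 CPM in Sen(IR)+UK5099 (log2 fold change of -8.17 ± 0.11 SE, adjusted p = 1.24e-23). MKI67, which encodes the proliferation antigen Ki-67, was at 271, 224 and 209.7 CPM in Prol and 1.37, 0.630 and 0.853 CPM with the inhibitor (log2 fold change of -7.96 ± 0.16 SE, adjusted p = 2.45e-21). In Sen(IR) these genes were at 13.3, 12.4 and 11.5 CPM and 11.1, 12.6 and 9.27 CPM, so the inhibitor-treated cells lay below both other groups with no overlap. MYBL2, a transcription factor of cycling cells, fell by 8.12 on the log2 scale, DLGAP5 of the spindle by 7.90 and UBE2C, which works with the anaphase-promoting complex, by 7.87.

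Every gene of the mitosis list was lower than in Prol (33 of 33 tested, against 26.2% of all genes), with a median log2 fold change of -6.65. The median was -4.09 in Sen(IR), and all 33 were called lower in Sen(IR)+UK5099 than in Sen(IR), against 12.1% of all genes. PLK1, a kinase needed for mitotic entry and exit, was at 125, 103 and 129 CPM in Prol, 4.40, 3.70 and 4.02 CPM in Sen(IR) and 0.869, 1.78 and 1.98 CPM with UK5099. CCNA2, cyclin A2, was at 203, 183 and 216 CPM, 12.7, 10.7 and 13.7 CPM and 7.08, 7.31 and 7.56 CPM in the same order. Both decreased from Prol to Sen(IR) and again to Sen(IR)+UK5099 without overlap between groups. The smallest change in the list was that of MAD2L1, a spindle checkpoint protein, with a fall of 3.81 on the log2 scale.

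DNA replication genes were likewise all lower than in Prol (33 of 33), with a median log2 fold change of -3.48 against -2.63 in Sen(IR). Of the 33 genes 20 were called lower than in Sen(IR), against 12.1% of all genes. Those that fell furthest were MCM10, an initiation factor (-7.07), RRM2, the ribonucleotide reductase subunit (-6.97), and TK1, thymidine kinase (-6.94). RRM2 was at 618, 504 and 622 CPM in Prol and 4.31, 5.41 and 4.11 CPM in Sen(IR)+UK5099, with 58.9, 53 and 55.4 CPM in Sen(IR). The licensing factor CDC6 was at 125, 113 and 129 CPM in Prol, 12.3, 11.3 and 11.6 CPM in Sen(IR) and 4.02, 4.15 and 2.60 CPM with UK5099. At the other end MCM6, a subunit of the replicative helicase, was at 42.1, 42.7 and 39.6 CPM with the inhibitor and 34.9, 38.0 and 37.2 CPM without it, against 152, 143 and 157 CPM in Prol. Its remaining fall of 1.86 on the log2 scale was therefore not larger than in Sen(IR) (-2.04).

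The start-site windows of PLK1 and CDC6 are shown because these lists moved together and their promoters carry known cell-cycle elements. Both windows run from 250 bases before to 50 after the RefSeq start site (GRCh38.p14, plus strand), PLK1 at chr16:23678639-23678938 and CDC6 at chr17:40287629-40287928. Capitals mark the cell cycle homology region (TTTGAA) and the CCAAT box in PLK1, and an E2F site (TTTNNCGC) and CCAAT boxes in CDC6, searched on both strands.
PLK1: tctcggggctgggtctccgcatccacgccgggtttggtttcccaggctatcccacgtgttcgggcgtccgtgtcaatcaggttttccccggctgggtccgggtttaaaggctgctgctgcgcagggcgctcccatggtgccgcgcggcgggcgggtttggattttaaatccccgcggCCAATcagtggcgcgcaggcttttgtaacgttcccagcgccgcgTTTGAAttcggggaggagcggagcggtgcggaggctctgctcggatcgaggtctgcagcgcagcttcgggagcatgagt
CDC6: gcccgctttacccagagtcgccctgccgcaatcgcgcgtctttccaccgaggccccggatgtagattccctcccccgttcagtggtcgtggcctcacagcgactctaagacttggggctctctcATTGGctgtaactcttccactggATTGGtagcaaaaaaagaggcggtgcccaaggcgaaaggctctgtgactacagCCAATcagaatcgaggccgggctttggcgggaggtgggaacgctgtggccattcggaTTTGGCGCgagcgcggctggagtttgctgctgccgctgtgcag
In PLK1 the cell cycle homology region began 29 bases before the start site and the CCAAT box 73 bases before it. Promoters were found for 29 of the 33 mitosis genes, and 75.9% of these held TTTGAA and 82.8% a CCAAT box, against 15.4% and 35.7% of all 27305 promoters in the RefSeq table. Of 29 matched replication genes 62.1% held the E2F letters, against 6.90% of all promoters. Among matched promoters of all genes tested the shares were 10% for TTTGAA, 36.2% for the CCAAT box and 10.2% for the E2F letters. Both lists were made of known cell-cycle genes, so their shares describe the lists and test nothing. All are matches of letters, not sites shown to be bound.

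Of the CDK inhibitors, CDKN1A and CDKN2B remained higher. CDKN1A, which encodes p21, was at 289, 337 and 319 CPM in Prol, 1073, 1042 and 1051 CPM in Sen(IR) and 1124, 1112 and 1058 CPM in Sen(IR)+UK5099 (log2 fold change of 1.80 ± 0.05 SE, adjusted p = 4.00e-18). CDKN2B, which encodes p15, was at 13.7, 15.9 and 15.0 CPM, 33.9, 38.5 and 41.6 CPM and 38.7, 39.9 and 44.6 CPM in these groups. For both genes the inhibitor-treated libraries lay above all of Prol, and the difference from Sen(IR) was not called (log2 fold change 0.06, 95% interval -0.05 to 0.17, for CDKN1A and 0.11, -0.07 to 0.30, for CDKN2B). Of the other CDK inhibitors CDKN2A, whose locus gives p16 and ARF, fell by 0.83 on the log2 scale, CDKN1B by 0.58 and CDKN2C by 5.62. The 2 higher and 3 lower of the 7 genes in this list had each been called in the same direction in Sen(IR). These are 28.6% and 42.9%, against 26.9% and 26.2% of all genes.

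Of 14 p53 targets that were called higher in Sen(IR), 12 remained higher. With 2 that were called only against Prol with UK5099, 14 of the 21 genes in this list were higher (66.7%, against 26.9% of all genes) and 3 were lower, with a median log2 fold change of 0.63 against 1.01 in Sen(IR). TP53INP1, a stress-induced regulator of autophagy, was at 21.0, 30.5 and 22.7 CPM in Prol and 179.6, 173 and 196 CPM with UK5099 (log2 fold change of 2.89 ± 0.09 SE, adjusted p = 8.87e-18). MDM2, the ubiquitin ligase that restrains p53, was at 145, 153 and 152 CPM and 416, 412 and 414 CPM. These values lay above Prol in every library. BTG2, an antiproliferative gene, rose by 1.90 on the log2 scale and RRM2B, a p53-induced ribonucleotide reductase subunit, by 1.79. The death receptor FAS was an exception, at 63.4, 64.0 and 63.8 CPM in Prol, 111, 113 and 114 CPM in Sen(IR) and 72.6, 71.2 and 71.9 CPM with the inhibitor, and counted among the absent differences. BAX, DDB2 and AEN were the 3 that fell.

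All 11 genes of the nuclear lamina and chromatin list stayed lower (against 26.2% of all genes), with a median of -2.30 (-2.17 in Sen(IR)). LMNB1, lamin B1, was at 164, 160.5 and 182 CPM in Prol, 8.59, 8.30 and 7.85 CPM in Sen(IR) and 2.69, 2.52 and 2.33 CPM with UK5099, a fall of 6.07 on the log2 scale. The chromatin protein HMGB1 was at 656, 652 and 715 CPM, 168, 170.3 and 181 CPM and 149, 159 and 157 CPM. HMGB2 was the only member called higher than in Sen(IR), at 59.3, 60.0 and 62.0 CPM with the inhibitor against 23.0, 21.0 and 21.0 CPM without it, and still below the 217, 203 and 229 CPM of Prol.

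**Figure D2:**
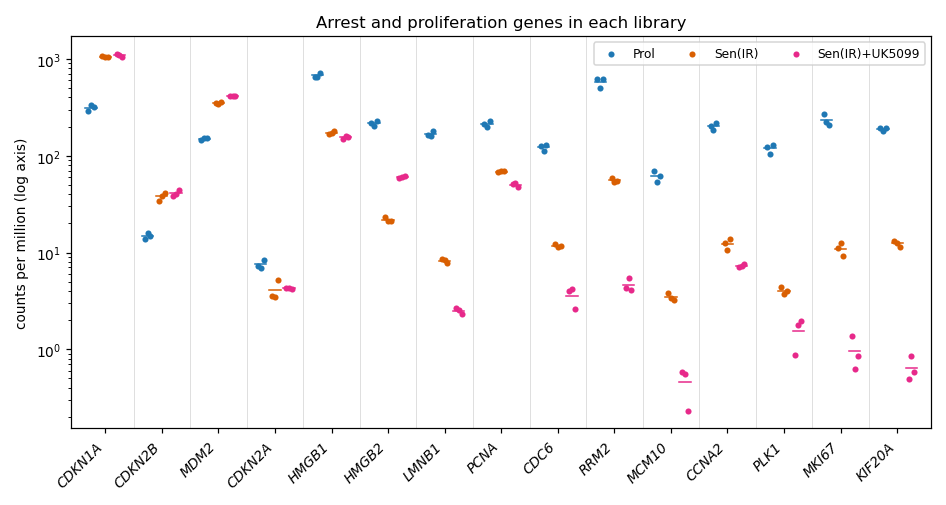
Points are single libraries and short lines are the mean of 3, as CPM on a log axis, for arrest, lamina, replication and mitosis genes in Prol, Sen(IR) and Sen(IR)+UK5099. CDKN1A, CDKN2B and MDM2 lie above Prol in both senescent groups, whereas replication and mitosis genes lie below it, down to 0.497, 0.853 and 0.581 CPM for KIF20A with UK5099.

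Lysosomal genes, whose enzymes include the senescence-associated beta-galactosidase GLB1, remained raised. Of 27 genes 18 were higher than Prol (66.7%, against 26.9% of all genes), 17 of them also in Sen(IR). Another 3 were lower (11.1%, against 26.2%), and the median was 0.77 (0.81 in Sen(IR)). GLB1 was at 82.3, 89.0 and 86.3 CPM in Prol, 194, 189 and 189.6 CPM in Sen(IR) and 184, 182 and 176 CPM in Sen(IR)+UK5099. FUCA1, alpha-fucosidase, had the largest rise (3.99), and ATP6V1A, a subunit of the proton pump, was at 204, 206 and 209 CPM in Prol and 739, 735 and 756 CPM with the inhibitor. Against these stood the cathepsins CTSS and CTSK, both called higher in Sen(IR) and below Prol with UK5099. CTSS, which acts in antigen presentation, was at 1.79, 1.80 and 2.01 CPM in Prol, 28.3, 26.4 and 27.5 CPM in Sen(IR) and 0.290, 0.408 and 0.233 CPM in Sen(IR)+UK5099 (log2 fold change of -2.57 ± 0.23 SE, adjusted p = 9.76e-10).

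The largest rises against Prol among well-expressed genes were RSPO2, a Wnt-signalling ligand (58.8-fold), ABCA3, a lipid transporter of lung surfactant (38.4-fold), the secreted glycoprotein OLFM1 (33.7-fold), and the histone genes H2BC4 (31.5-fold) and H4C8 (29.9-fold). RSPO2 was at 0.171, 0.172 and 0.186 CPM in Prol, 4.40, 4.27 and 5.10 CPM in Sen(IR) and 9.85, 10.5 and 11.7 CPM with the inhibitor. Each of the 5 was also called higher than in Sen(IR). Histone genes of 1 class are near-identical to each other, and 30.9% of the exonic bases of H2BC4 overlap another annotated gene, so their counts are uncertain. The genes that stayed higher by the smaller of their changes in Sen(IR) and Sen(IR)+UK5099 also included CDH10 (4.73), a cadherin, CNTN4 (4.55), a contactin, and PLA2G4C (4.54), a phospholipase A2. By the same measure NUF2, PLK1, SKA1, MYBL2 and AURKB led those that stayed lower, and their smaller change was the one in Sen(IR), at -4.89, -4.88, -4.83, -4.78 and -4.75 on the log2 scale.

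The secretory genes were spread over several classes. Of the genes above Prol in Sen(IR) and below it with the inhibitor, the 5 that led by the smaller of their 2 changes were CCL2, a chemokine for monocytes, TNFSF15 and TNFSF18, ligands of the TNF superfamily, SERPINB2, an inhibitor of plasminogen activators, and CTSS. CCL2 was at 14.9, 17.7 and 16.2 CPM in Prol, 216, 221 and 232 CPM in Sen(IR) and 2.77, 3.08 and 2.64 CPM in Sen(IR)+UK5099 (log2 fold change of -2.52 ± 0.10 SE, adjusted p = 5.61e-16). TNFSF18 was at 1.83, 1.72 and 2.08 CPM, 203, 189.6 and 202 CPM and 0.166, 0.482 and 0.233 CPM in the same order (log2 fold change of -2.64 ± 0.28 SE, adjusted p = 1.54e-08). TNFSF15 was at 4.52, 7.38 and 4.16 CPM, 59.3, 52.8 and 57.9 CPM and 0.290, 0.482 and 0.0775 CPM. In all of them Sen(IR) was the highest group and Sen(IR)+UK5099 the lowest, with no overlap.

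IL6 and CXCL8, the cytokine and the neutrophil chemokine commonly used to mark the SASP, ended below the proliferating level as well. IL6 was at 2.39, 2.15 and 3.64 CPM in Prol, 121, 104 and 115 CPM in Sen(IR) and 1.57, 1.11 and 0.814 CPM with UK5099 (log2 fold change of -1.25 ± 0.23 SE, adjusted p = 5.70e-05). CXCL8 was at 4.73, 2.15 and 4.46 CPM, 549, 544 and 524 CPM and 2.03, 2.11 and 1.40 CPM (log2 fold change of -1.04 ± 0.29 SE, adjusted p = 0.00311). The gap between Prol and Sen(IR)+UK5099 was narrow beside that to Sen(IR), and the lowest Prol library of CXCL8 lay just above the highest inhibitor-treated one. IL1B, an upstream inducer of the SASP, was at 0.469, 0.215 and 0.446 CPM in Prol and at the counting floor of at most 3 counts in each library with UK5099, at least 3.03-fold lower.

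The start-site windows of CXCL8 and IL6, the genes just described, are shown with their NF-kB site (GGANTTTCC) and AP-1 site (TGANTCA) in capitals, searched on both strands. They span 250 bases before to 50 after the RefSeq start site (GRCh38.p14, plus strand), at chr4:73740319-73740618 and chr7:22726950-22727249.
CXCL8: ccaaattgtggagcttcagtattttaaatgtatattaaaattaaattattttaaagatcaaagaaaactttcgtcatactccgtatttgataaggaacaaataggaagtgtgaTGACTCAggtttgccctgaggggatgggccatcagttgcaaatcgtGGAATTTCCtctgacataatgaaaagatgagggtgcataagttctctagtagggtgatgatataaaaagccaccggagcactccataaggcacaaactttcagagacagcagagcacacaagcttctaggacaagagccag
IL6: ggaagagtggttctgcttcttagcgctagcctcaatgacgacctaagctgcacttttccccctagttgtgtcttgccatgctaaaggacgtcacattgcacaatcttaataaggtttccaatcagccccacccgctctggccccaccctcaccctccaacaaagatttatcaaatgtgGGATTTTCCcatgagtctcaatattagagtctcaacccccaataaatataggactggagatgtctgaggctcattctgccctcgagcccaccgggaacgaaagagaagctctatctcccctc
The NF-kB letters began 91 bases before the start site in CXCL8 and 72 bases before it in IL6, and the AP-1 letters 137 bases before it in CXCL8. The AP-1 letters were not in the IL6 window, which says nothing of that factor. Of 15 matched promoters of the NF-kB list of 17 genes 33.3% held the NF-kB letters, against 1.64% of all promoters in the table. The list was made of known NF-kB targets, so this share describes the list and tests nothing. For the 130 genes below Prol promoters of only 85 were matched, and no share is given for them.

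Among 16 chemokines that passed the filter 4 were higher than Prol (25%, against 26.9% of all genes) and 3 were lower (18.8%, against 26.2%). In Sen(IR) 15 had been called higher, against 24.8% of all genes. CXCL5, a neutrophil chemokine, kept a part of its increase, at 0.640, 0.301 and 0.632 CPM in Prol, 124, 128 and 136 CPM in Sen(IR) and 2.36, 3.97 and 3.22 CPM with the inhibitor. CXCL16 was at 3.93, 4.15 and 3.60 CPM with the inhibitor against 0.256, 1.55 and 0.929 CPM in Prol, a level not called different from Sen(IR). CXCL3 was higher than Prol by 1.42 on the log2 scale, and CXCL14 was at least 2.37-fold higher, from a floor of at most 3 counts in each Prol library. CXCL1, at 0.0427, 0.472 and 0.409 CPM in Prol, 289.5, 299 and 296 CPM in Sen(IR) and 0.207, 0.223 and 0.271 CPM with UK5099, was not called against Prol, but its interval (-1.49 to 0.67 on the log2 scale) was too wide to call the difference absent. CCL7 and CCL20 had no count in any library of Prol or Sen(IR)+UK5099. The filter was passed through Sen(IR) alone by some members, 5 of which give no fold against Prol and could hardly be called against it. The shares called, the 15 called in Sen(IR) and the median of the other 11 (-0.06) are therefore given only as a description. CXCL12, which was not raised in Sen(IR), fell below both other groups, to 8.94, 9.49 and 11.3 CPM from 15.2, 18.5 and 14.6 CPM in Prol.

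Of 15 interleukins and colony-stimulating factors that passed the filter 6 were lower than Prol (40%, against 26.2% of all genes) and 1, LIF, was higher. In Sen(IR) 11 had been called higher, against 24.8% of all genes. No fold against Prol can be given for 3 of the 15, whose counts lay at or near the floor (CSF2, CSF3 and IL33, named after their values were seen). The shares of this list are therefore a description too. LIF, a cytokine of the IL-6 family, was at 40.2, 45.7 and 42.7 CPM in Prol, 247, 239 and 225 CPM in Sen(IR) and 77.7, 71.4 and 71.1 CPM with UK5099. IL18 and IL32, both inflammatory cytokines, joined IL6 and IL1B below Prol, with a fall of 1.14 for IL18 and of 3.44 for IL32 on the log2 scale. IL11 had already been lower in Sen(IR) and was at 118, 97.0 and 118 CPM in Prol, 9.25, 10.1 and 10.8 CPM in Sen(IR) and 2.07, 1.97 and 2.48 CPM with the inhibitor. For CSF1, the macrophage growth factor, and IL15 the increase of Sen(IR) was absent, with 84.5, 79.5 and 84.4 CPM of CSF1 against 86.7, 92.0 and 86.6 CPM in Prol.

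Among genes that NF-kB induces, including its own inhibitors, 15 of the 17 tested were called higher in Sen(IR), against 24.8% of all genes. Against Prol 4 were higher with UK5099 (23.5%, against 26.9% of all genes) and 6 were lower (35.3%, against 26.2%), with a median log2 fold change of -0.18 against 1.71 in Sen(IR). The increase was absent for 6 genes, namely the subunits NFKB2 and RELB, the inhibitors NFKBIA, NFKBIZ and TNIP1, and ZC3H12A, which degrades inflammatory mRNAs. Absent allows a difference within the margin, and NFKBIZ kept one. It was at 26.8, 27.8 and 29.1 CPM in Prol, 174, 174 and 176 CPM in Sen(IR) and 32.2, 35.0 and 36.9 CPM with UK5099. Its log2 fold change of 0.31 against Prol passed the adjusted p (0.000234) but not the fold change. NFKBIA was at 21.6, 19.0 and 23.6 CPM in Prol, 72.9, 72.1 and 71.6 CPM in Sen(IR) and 18.1, 18.5 and 18.6 CPM with the inhibitor. ZC3H12A was at 4.39, 4.85 and 3.72 CPM, 27.7, 28.1 and 29.8 CPM and 3.39, 4.04 and 3.91 CPM, with overlap between Prol and Sen(IR)+UK5099. TNFAIP2, TNFAIP3, BIRC3 and ICAM1 ended below Prol. The adhesion molecule ICAM1 was at 62.4, 64.1 and 63.4 CPM in Prol, 303, 308 and 302 CPM in Sen(IR) and 19.3, 16.6 and 15.6 CPM with UK5099 (25.4% of its exonic bases lie in another annotated gene too), and TNFAIP3, the deubiquitinase A20, fell by 1.68 on the log2 scale. VCAM1 and SOD2 remained higher, far below the Sen(IR) level. SOD2, the mitochondrial superoxide dismutase, was at 192, 204 and 204 CPM in Prol, 3406, 3354 and 3590 CPM in Sen(IR) and 384, 406 and 412 CPM in Sen(IR)+UK5099. TRAF1, an adaptor of TNF receptors, was not called different from Sen(IR), at 8.49, 7.27 and 8.29 CPM against 2.3, 2.19 and 1.82 CPM in Prol and 6.98, 6.92 and 6.62 CPM in Sen(IR). NFKB1 and BCL3 were lower than both other groups.

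**Figure D3:**
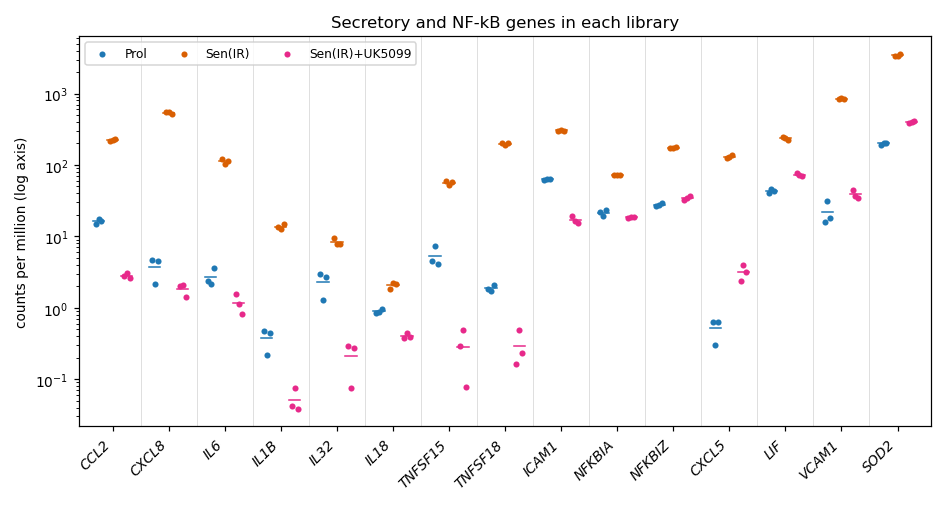
Points are single libraries and short lines are the mean of 3, as CPM on a log axis, for secretory and NF-kB genes in Prol, Sen(IR) and Sen(IR)+UK5099. From CCL2 to ICAM1 the inhibitor-treated libraries lie under those of Prol, NFKBIA and NFKBIZ lie close to Prol, and CXCL5, LIF, VCAM1 and SOD2 lie between Prol and Sen(IR).

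Interferon-stimulated genes, of which 23 of 24 were raised in Sen(IR) (against 24.8% of all genes), were mixed. Against Prol 9 were higher (37.5%, against 26.9% of all genes), 5 were lower (20.8%, against 26.2%) and 10 were not called. The median was 0.04 over the 23 genes that give a fold. The count of lower genes was 3 without Prol replicate 2. IFIT2, an antiviral RNA-binding protein, stayed at 21.3, 18.9 and 22.0 CPM against 6.23, 6.01 and 7.44 CPM in Prol and 43.5, 38.7 and 38.4 CPM in Sen(IR). For IFI44 and the RNA sensor IFIH1, which were at 27.7, 20.2 and 20.2 CPM and 22.9, 18.8 and 20.2 CPM in Sen(IR), the increase was absent, at 5.13, 3.15 and 4.03 CPM and 5.30, 4.64 and 4.22 CPM with the inhibitor. IFIT1, which binds viral RNA, fell below Prol, at 22.0, 38.8 and 28.6 CPM in Prol, 86.5, 57.7 and 65.0 CPM in Sen(IR) and 7.29, 5.97 and 6.12 CPM with UK5099. OAS3, an oligoadenylate synthetase, was not called in Sen(IR) and was at 1.99, 0.853 and 1.32 CPM with the inhibitor against 16.8, 14.8 and 15.7 CPM in Prol.

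Among growth factors and IGF-binding proteins 14 of 26 genes were lower than Prol (53.8%, against 26.2% of all genes) and 3 were higher, with a median of -0.67 where the median of Sen(IR) was 0.60. STC1, a secreted glycoprotein, NRG1, an EGF-family ligand, and the angiogenic factors VEGFA and VEGFC were raised in Sen(IR) and below Prol with UK5099. VEGFA was at 47.5, 62.2 and 51.9 CPM in Prol, 88.2, 82.1 and 85.2 CPM in Sen(IR) and 33.0, 32.0 and 31.0 CPM with the inhibitor. HGF, BMP2, INHBA, HBEGF and IGFBP6 were not called in Sen(IR) and fell with UK5099. HGF, a growth factor that fibroblasts supply to epithelium, was at 664, 885 and 667 CPM in Prol, 852, 844 and 881 CPM in Sen(IR) and 267, 251 and 254 CPM in Sen(IR)+UK5099 (log2 fold change of -1.52 ± 0.08 SE, adjusted p = 8.12e-14). IGFBP3 and IGFBP5 remained lower, and IGFBP3 was at 678, 774 and 734 CPM, 106, 106 and 103 CPM and 28.8, 27.6 and 27.4 CPM in these groups. ANGPTL4, a regulator of lipoprotein lipase, kept its rise, at 1.66, 0.902 and 1.41 CPM in Prol and 26.1, 28.2 and 24.5 CPM with the inhibitor, and IGFBP2 and IGFBP4 stayed higher by 1.34 and 0.64 on the log2 scale. GDF15, a stress-induced cytokine of the TGF-beta family, was at 31.6, 29.6 and 22.6 CPM against 21.5, 21.5 and 22.5 CPM in Prol and 70.6, 61.8 and 68.0 CPM in Sen(IR), a difference from Prol that passed the adjusted p (0.00204) but not the fold change.

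Proteases and their inhibitors gave 8 lower (47.1%, against 26.2% of all genes), 3 higher (17.6%, against 26.9%) and 6 genes not called of 17 tested. PLAU, the urokinase plasminogen activator, was among the 5 largest falls of genes that were not called in Sen(IR). It was at 1507, 1506 and 1634 CPM in Prol, 1665, 1594 and 1619 CPM in Sen(IR) and 129, 129 and 104 CPM with UK5099 (log2 fold change of -3.69 ± 0.07 SE, adjusted p = 1.57e-21), with 31.0% of its exonic bases in another annotated gene. Its receptor PLAUR fell by 2.53 on the log2 scale. The collagenase MMP1 was at 198, 147 and 203 CPM, 220.1, 205 and 218 CPM and 43.0, 46.4 and 39.6 CPM in the same order, and the stromelysin MMP3 fell from above Prol in Sen(IR) to below it (-1.23). MMP2, the gelatinase, was not called, at 1005, 918 and 879 CPM against 928, 1052 and 938 CPM in Prol. TIMP1, the metalloproteinase inhibitor, was not called different from Sen(IR), at 264, 279.7 and 299.5 CPM in Prol, 1138, 1114 and 1150 CPM in Sen(IR) and 1276, 1293 and 1119 CPM with the inhibitor. PLAT, the tissue plasminogen activator, stayed higher by 1.40 on the log2 scale.

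Most matrix genes lay below Prol. Of 29 collagen and matrix genes 22 were lower (75.9%, against 26.2% of all genes) and none was higher (1 with upper-quartile scaling). The median was -1.46 against -0.43 in Sen(IR). COL1A1, the main chain of type I collagen, was at 6456, 7213 and 6329 CPM in Prol, 4681, 4820 and 4642 CPM in Sen(IR) and 1719, 1580 and 1504 CPM with UK5099 (log2 fold change of -2.06 ± 0.06 SE, adjusted p = 3.24e-18). POSTN, periostin, was at 89.5, 103 and 95.7 CPM, 67.0, 62.8 and 63.0 CPM and 2.82, 1.71 and 2.05 CPM, a fall of 5.46 on the log2 scale. LOX, which crosslinks collagen, COL1A2, COL6A1 and COL11A1 were raised in Sen(IR) and below Prol with the inhibitor, although COL1A2 (-0.53) was not called without Prol replicate 2 (-0.41) or without Sen(IR)+UK5099 replicate 3 (-0.48). ELN, elastin, was at 45.9, 31.5 and 42.3 CPM in Prol and at the counting floor with UK5099, at least 322-fold lower, after 0.267, 0.237 and 0.147 CPM in Sen(IR). FN1, fibronectin, and the proteoglycans DCN and LUM were not called, with DCN at 1244, 1408 and 1434 CPM against 1201, 1800 and 1405 CPM in Prol. These lists share genes with the 10 fibroblast markers, 6 of which were lower (60%, against 26.2% of all genes). The lower ones were COL1A1, COL1A2, COL3A1, PDGFRA, FAP and VIM, while DCN, LUM, PDGFRB and THY1 were not called. The summed level of the 10 markers fell with the matrix genes, as given above, and the part of a change in the cells in this was not tested.

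Contractile genes, which mark myofibroblasts, were lower in 8 of 12 cases (66.7%, against 26.2% of all genes), with a median of -1.78 (-0.77 in Sen(IR)). ACTG2 was at 546, 484 and 617 CPM in Prol, 61.7, 60.9 and 62.5 CPM in Sen(IR) and 11.4, 11.3 and 9.11 CPM with UK5099. TAGLN, transgelin, fell by 4.28 and ACTA2, smooth muscle actin, by 3.88 on the log2 scale, with 47.8% and 36.2% of their exonic bases shared with another annotated gene.

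Genes called against Prol with the inhibitor but not in Sen(IR) included targets that NRF2, the regulator of the oxidant response, is known to induce. Of 21 NRF2 targets 12 were higher than Prol (57.1%, against 26.9% of all genes) and 2 were lower, with a median of 0.81 where Sen(IR) had -0.01. GCLM, TXNRD1, SRXN1, SLC7A11, OSGIN1 and PGD were called in neither direction in Sen(IR) and higher than both groups with UK5099, with 90.7% of the exonic bases of SRXN1 in another annotated gene. GCLM, a subunit of the enzyme that starts glutathione synthesis, was at 154, 155 and 154 CPM in Prol, 134, 138 and 148 CPM in Sen(IR) and 256, 281 and 295 CPM with the inhibitor. HMOX1, heme oxygenase, was at 18.3, 20.3 and 19.0 CPM, 42.1, 40.7 and 34.8 CPM and 172, 182 and 183 CPM (log2 fold change of 3.22 ± 0.07 SE, adjusted p = 1.76e-20), higher than Prol in Sen(IR) and higher again with UK5099. AKR1C1, a ketosteroid reductase, rose by 3.12 on the log2 scale and the ferritin light chain FTL by 1.87, although members of the AKR1C family and ferritin pseudogenes are alike in sequence and can share reads. NQO1, a quinone reductase, was at 895, 923 and 883 CPM against 742, 758 and 817 CPM in Prol and was not called against it. TKT, transketolase, was lower (-0.76), as it was in Sen(IR).

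The largest rises called only with the inhibitor were FAM169A (2.51, with 43.3% of its exonic bases shared), MTARC1 (2.29) and MTARC2 (1.77), the mitochondrial amidoxime reducing components, PLCD4 (2.01, 34.0% shared), a phospholipase C, and PTPN3 (1.82), a tyrosine phosphatase. MTARC1 was at 5.71, 9.02 and 6.32 CPM in Prol, 5.38, 5.55 and 6.47 CPM in Sen(IR) and 33.2, 34.5 and 35.4 CPM with UK5099. The largest falls called only with the inhibitor were INMT, an N-methyltransferase, TMEM156, PLAU, the receptor IL7R and TNFAIP6, a hyaluronan-binding protein. INMT was at 15.3, 15.4 and 19.2 CPM, 13.2, 14.1 and 12.3 CPM and 0.166, 0.111 and 0.0775 CPM in these groups (log2 fold change of -7.09 ± 0.22 SE, adjusted p = 9.11e-18), and IL7R was at 384, 340.0 and 352 CPM, 285, 278 and 277 CPM and 31.0, 27.7 and 26.2 CPM. None of these 10 genes was called between Prol and Sen(IR), and the inhibitor-treated libraries did not overlap those of Prol in any of them. In Sen(IR) MTARC2 (0.46), IL7R (-0.36) and INMT (-0.34) did pass the adjusted p against Prol, but not the fold change.

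**Figure D4:**
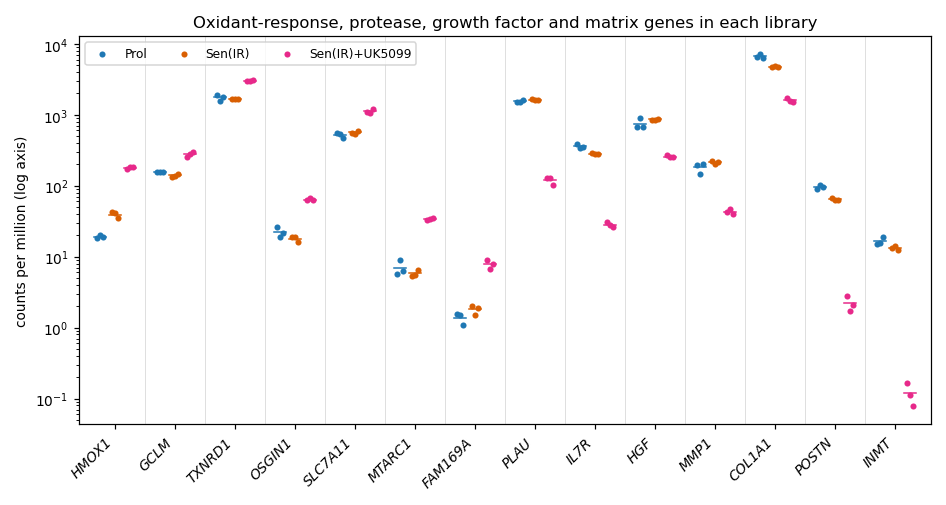
Points are single libraries and short lines are the mean of 3, as CPM on a log axis, for oxidant-response, mitochondrial, protease, growth factor and matrix genes in Prol, Sen(IR) and Sen(IR)+UK5099. From HMOX1 to FAM169A the inhibitor-treated libraries lie above both other groups, and from PLAU to INMT they lie below both.

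In the route that the inhibitor blocks, the shares called were under those of all genes. Of 23 genes from pyruvate to acetyl-CoA 4 were higher (17.4%) and 5 were lower (21.7%). MPC1 was at 14.9, 16.6 and 17.7 CPM in Prol, 14.4, 13.7 and 16.4 CPM in Sen(IR) and 19.4, 19.2 and 18.0 CPM with UK5099, and MPC2 was at 38.3, 35.4 and 43.6 CPM, 56.1, 56.8 and 58.5 CPM and 50.1, 56.3 and 51.2 CPM, and neither was called against Prol. SLC25A1, the citrate carrier, remained higher, at 58.2, 63.5 and 62.6 CPM in Prol, 101, 94.4 and 90.7 CPM in Sen(IR) and 111, 118 and 106 CPM with the inhibitor. ACLY was not called, at 326, 326 and 324 CPM against 363, 356 and 346 CPM in Prol. The pyruvate dehydrogenase kinase PDK4, which shuts the complex off, was at 0.213, 0.730 and 0.223 CPM in Prol, 10.8, 10.1 and 9.91 CPM in Sen(IR) and 6.95, 9.05 and 7.29 CPM with UK5099 (log2 fold change of 4.33 ± 0.25 SE, adjusted p = 5.43e-13). LDHA, the lactate dehydrogenase subunit of glycolytic cells, was at 1242, 1282 and 1370 CPM, 832, 844 and 841 CPM and 366, 394 and 365 CPM, lower than in both other groups.

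Glycolysis genes were lower in 7 of 19 cases (36.8%, against 26.2% of all genes) and higher in 1, ALDOC, with a median of -0.46 (0.03 in Sen(IR)). TPI1, PKM, PGK1 and PGAM1 were called lower only with UK5099. ENO1, enolase, was at 1764, 1732 and 1874 CPM in Prol, 930.2, 940.2 and 906 CPM in Sen(IR) and 529, 555 and 528 CPM with the inhibitor. The rise of HK2, hexokinase 2, was absent, at 79.2, 65.8 and 73.0 CPM, 201, 199 and 192 CPM and 78.7, 74.3 and 70.3 CPM in these groups. TCA cycle genes were lower in 8 of 17 cases (47.1%) and higher in none, with a median of -0.46 (-0.34 in Sen(IR)) and the largest fall for FH, fumarase (-1.26). Nuclear-encoded respiratory chain genes were lower in 14 of 68 cases (20.6%) and higher in none, under the 26.2% of all genes. With upper-quartile scaling, which moved the median of all genes from 0.01 to 0.15, the counts were 4 lower and 2 higher for glycolysis, 5 lower and 2 higher for the TCA cycle and 3 lower for the pyruvate route, so the small differences in these lists depend on the scaling.

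Transcripts of the mitochondrial genome went the other way. Of 13 mRNAs 8 were higher than Prol (61.5%, against 26.9% of all genes) and 1, MT-ATP8, was lower, with a median of 0.52 (0.22 in Sen(IR)). MT-ND6, a complex I subunit, was at 581, 598 and 473 CPM in Prol, 883, 854 and 751 CPM in Sen(IR) and 2251, 2338 and 2319 CPM with UK5099, and MT-ND5 was at 1790, 1717 and 1303 CPM, 2269, 2233 and 1912 CPM and 4374, 4308 and 4703 CPM. Most of the other members lay near the limit of 0.5, and the count of higher genes was 5 without Prol replicate 3 and 5 without Sen(IR)+UK5099 replicate 2. The share of counts from the mitochondrial genome was between 2.36 and 2.68% in Prol and between 3.81 and 4.23% in Sen(IR)+UK5099, with Sen(IR) between them at 2.78 to 3.21%, and the part of RNA quality in this was not tested.

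Amino acid genes that ATF4 induces were mostly lower, and 16 of the 26 tested were called lower than in Sen(IR), against 12.1% of all genes. Against Prol 15 were lower (57.7%, against 26.2% of all genes) and 4 higher (15.4%, against 26.9%), with a median of -1.0 (-0.38 in Sen(IR)). PHGDH, the first enzyme of serine synthesis, was at 74.3, 102 and 87.4 CPM in Prol, 22.3, 20.9 and 21.0 CPM in Sen(IR) and 10.1, 8.53 and 8.99 CPM with the inhibitor. The transporters SLC7A5 and SLC7A1 fell by 3.05 and 2.73 on the log2 scale, and the glutathione-degrading CHAC1 by 2.86. ATF4 itself was at 267, 317 and 306 CPM in Prol and 145, 149 and 132 CPM with UK5099. SLC7A11, the cystine transporter and also a listed NRF2 target, rose, at 550.3, 537 and 471 CPM, 548, 544 and 598 CPM and 1094, 1052 and 1214 CPM in Prol, Sen(IR) and Sen(IR)+UK5099.

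Sterol genes gave 9 higher (40.9%, against 26.9% of all genes) and 3 lower (13.6%, against 26.2%) of 22, with a median of 0.25 (0.05 in Sen(IR)). SREBF2, the regulator of the pathway, was at 63.3, 73.1 and 60.1 CPM in Prol, 106, 109 and 102 CPM in Sen(IR) and 157, 147 and 145 CPM with UK5099. MVK, mevalonate kinase, had a small fall in Sen(IR), greatest against Prol replicate 2, that was placed as absent. It was at 7.04, 12.3 and 8.89 CPM in Prol, 6.58, 6.07 and 6.77 CPM in Sen(IR) and 9.31, 10.01 and 9.11 CPM with the inhibitor. Of 6 aryl hydrocarbon receptor targets 3 were higher (50%, against 26.9% of all genes). CYP1B1 was at 34.0, 54.3 and 39.8 CPM, 202, 193 and 213 CPM and 306, 359 and 384 CPM in these groups, and ALDH3A1, without a count in Prol, was at least 5.35-fold higher. Over 17 genes that the study follows, a list that is not independent of these samples, 3 were higher (CDKN1A, CDKN2B and SLC25A1), 8 were lower and 6 were not called. The shares were 17.6% higher and 47.1% lower, against 26.9% and 26.2% of all genes.

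**Figure D5:**
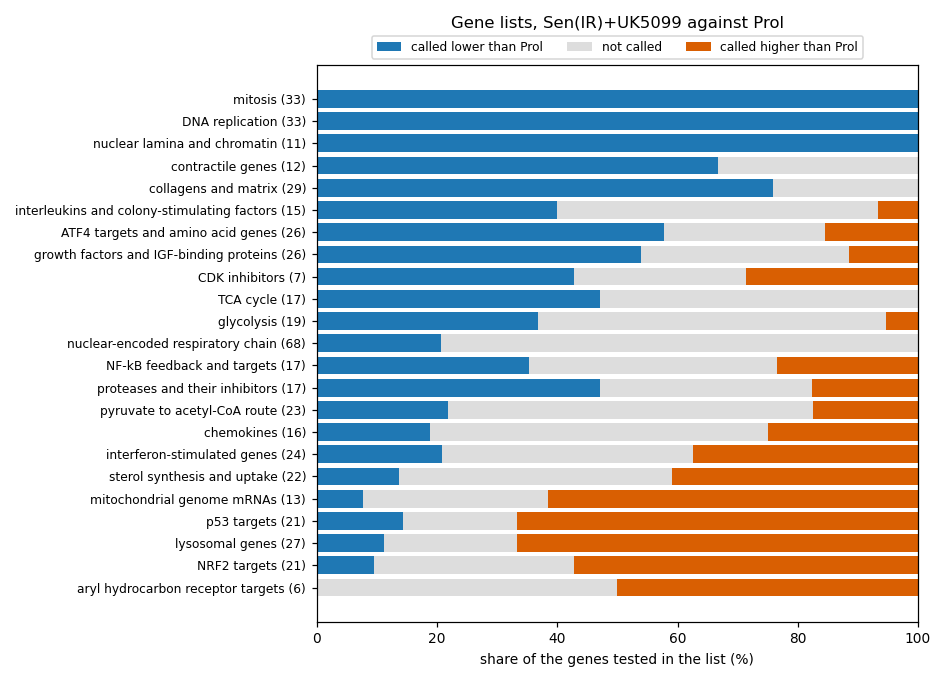
Bars divide the genes tested in each list (number in brackets) into those called lower than Prol, not called and called higher than Prol in Sen(IR)+UK5099, as a share in percent, ordered by the median log2 fold change. Over all genes 26.2% were lower and 26.9% higher. Mitosis, DNA replication and lamina genes are all lower, while p53, lysosomal and NRF2 targets are mostly higher.

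Of the other absent differences, OLR1, a scavenger receptor for oxidized LDL, was at 36.1, 41.9 and 41.8 CPM in Prol, 255, 253 and 248 CPM in Sen(IR) and 42.1, 47.2 and 42.2 CPM with UK5099. Among genes that Sen(IR) had lowered, INPP4B, a lipid phosphatase, was back at 32.7, 33.3 and 33.7 CPM against 36.9, 34.1 and 33.2 CPM in Prol and 14.8, 13.8 and 13.9 CPM in Sen(IR). AASS of lysine breakdown and DOCK11, an exchange factor for Cdc42, were placed alike, at 25.6, 25.6 and 26.7 CPM and 36.9, 33.8 and 38.4 CPM with the inhibitor against 25, 30.5 and 20.3 CPM and 43.7, 36.9 and 39.4 CPM in Prol. In Sen(IR) AASS was at 10.9, 12.8 and 9.71 CPM and DOCK11 at 16.2, 18.6 and 18.1 CPM. Of the 7 genes lowered in Sen(IR) and above Prol with the inhibitor, only GREM1 and MDK were well expressed. MDK, the growth factor midkine, was at 92.0, 113 and 109 CPM in Prol, 70.7, 64.8 and 65.3 CPM in Sen(IR) and 189.6, 198 and 179.9 CPM with UK5099 (log2 fold change of 0.86 ± 0.07 SE, adjusted p = 9.79e-11). GREM1, an antagonist of bone morphogenetic proteins, was at 2060, 1404 and 1912 CPM, 914, 926 and 948 CPM and 2521, 2542 and 2618 CPM, with a log2 fold change of 0.51, just past the limit, and was not called without Prol replicate 2 (0.37) or without Sen(IR)+UK5099 replicate 3 (0.50). The other 5 were MACROD1, MFSD13A, STIMATE-MUSTN1, TMEM169 and TNIP3, named after their values were seen, and their group means did not exceed 3.78 CPM.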

How the data were processed

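RNA of whole MRC5 cultures was sequenced and 12 libraries in 4 groups of 3 were used. The deposited table holds raw counts per Ensembl gene. Per the labels, the authors made these counts with Trimmomatic 0.36 for trimming, STAR 2.5.2b for alignment to GRCh38 and featureCounts (Subread 1.5.2). Whether strand was used is not given in the sources used here, so reads of overlapping or antisense genes may be shared. Gene names and overlaps came from GENCODE v44, which held 56410 of 57500 IDs. Promoters came from the RefSeq table of GRCh38.p14.

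Counts were tested in R 4.3.3 with the quasi-likelihood F test of edgeR 4.0.16, with TMM scaling and filterByExpr over all 12 libraries, which left 16251 genes and 99.91% of the counts. Adjustment was by Benjamini-Hochberg across all of them. All adjusted p, SE and intervals in the text are from this fit, which had 8 residual degrees of freedom. The coefficient of variation from the common dispersion was 6.12%. At most 3 counts in every library of a group were taken as the floor, and folds against it are bounds. The code of the test was checked on simulated counts with the same spread for every gene and few changed genes. These data differ from that setting, so scaling and intervals were not checked under their conditions.

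Genes were named by rule, namely the genes that the study follows, the 5 largest changes in each direction and in each class (mean log2 CPM over 1) and up to 4 members of each list in each direction beside members of known role. The genes, lists and classes were chosen with earlier results of these data known. DESeq2 1.42.0, other scalings, no filter, a replicate block, a fit without the CTPI2 libraries, a limit of 1 on the log2 fold change and leaving out each library were the alternatives. The 3 libraries with CTPI2 entered the fit and are not described.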

Additional observations from a re-analysis of the deposited data

How the results depend on the processing

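With DESeq2, RLE or upper-quartile scaling, no filter, no CTPI2 libraries in the fit or the replicate block, the counts of every class but 1 stayed within 1.5 times of those reported. The exception was the class lowered in Sen(IR) and above Prol with UK5099, with 7 genes, which held 4 with DESeq2, 4 with the replicate block and from 3 to 12 when single libraries were left out. Its low members STIMATE-MUSTN1, TMEM169 and TNIP3 were not called with DESeq2, without the filter or with the replicate block. Without single libraries 4237 to 4372 genes were higher than Prol and 4094 to 4259 were lower. The replicate numbers did not pair Prol with Sen(IR)+UK5099 (same-number correlations of 0.07, -0.103 and -0.129), and with the replicate block 4364 genes were higher and 4241 lower.

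Requiring an absolute log2 fold change over 1 left 2687 higher and 2280 lower genes. Of these classes 1777 remained higher, 1372 remained lower, 36 and 5 were absent, 55 lay below and 1 above Prol, and 180 and 307 were higher and lower only with UK5099. Fewer genes pass this limit by its construction.

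Upper-quartile scaling gave 5209 higher and 3470 lower genes, 60% of calls higher against 50.7%, and moved the median of all genes to 0.15. It ended the calls of CDKN1B, COL1A2, MT-ATP8, PGAM1, PGK1 and VEGFC, and called FN1 (0.50) and MPC2 (0.56) higher. Without Prol replicate 3 MPC2 was called too (0.51). Genes that were not called and lay near 0 changed sign. With upper-quartile scaling these were ACLY (0.0145), CSF1 (0.0441), DCN (0.0306), DOCK11 (0.0021), IFI44 (0.0291), IFIH1 (0.02), INPP4B (0.0759), MMP2 (0.0807) and TNIP1 (0.1115). Without single libraries the ranges that crossed 0 were -0.098 to 0.1963 for AASS, -0.2345 to 0.0636 for DCN, -0.0318 to 0.0997 for HK2, -0.2978 to 0.0522 for IFI44, -0.0869 to 0.1874 for IL15, -0.1153 to 8e-04 for MMP2, -0.1549 to 0.2469 for MVK and -0.0793 to 0.0034 for TNIP1. Depth limits genes near the floor, such as IL1B and CXCL1, where a change under the bound or within the interval was not detectable.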
